A study of Mus musculus with 8 samples.

Results

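The 6 lymphocyte quiescence factor genes Bach2, Klf2, Foxo1, Foxp1, Tob1 and Btg1 were followed, out of 53843 genes annotated on the autosomes and the X chromosome (GENCODE M21, GRCm38). They were chosen by name, with earlier results of these data known, and each locus was the gene body with 10 kb added on either side. Together the 6 loci held 14648 CpGs in the reference, of which 13683 (93.4%) were covered by at least 5 reads in every file and were used. The data were whole-genome bisulfite sequencing of splenic lymphocytes from C57BL/6J mice aged 6 to 8 weeks, with no transgene or treatment. B and T cells were each taken from females and from males, which makes 4 groups. B cells were the CD43- fraction and T cells were sorted naive CD4+ cells, CD44 low and CD25- among other gates. GEO lists 8 samples, 2 per group, but the 2 samples of a group share 1 file of methylation calls, so each group gave 1 value and the B and T cell comparison was seen once in each sex. Each sample came from pooled animals.

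Resting lymphocytes stay out of the cell cycle through active repression of growth and differentiation, and the genes that hold this state are expressed in both B and T cells. Bach2 and Foxp1 encode transcriptional repressors, Foxo1 a forkhead activator that is switched off by antigen receptor and growth factor signals, and Klf2 a zinc finger factor that Foxo1 induces. Tob1 and Btg1 belong to the BTG/TOB family of antiproliferative proteins, which bring a deadenylase to messenger RNAs. In mammals, CpG-rich starts of active genes are usually unmethylated, the bodies of genes are usually methylated, and short dips of methylation away from gene starts often mark regulatory elements used in that cell type.

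The short sequences that follow are a choice from the windows described further on, with every gene present. Each holds the CpG of its window that differed most between B and T cells. The sequences are from GRCm38, read 5′ to 3′ on the plus strand, and the capitals mark the CpG whose reads were counted. Those shown for Foxo1 are lower in B cells, although 9 of the 14 Foxo1 windows that differed were higher. Because these CpGs were picked for the size of their difference, their values are a description without a test.
Bach2 intron 1, higher in B cells (chr4:32291886-32291915): aatactgggtgaagCGagctgtgtcctgtg
Bach2 upstream, lower in B cells (chr4:32231997-32232026): ggggaaactgctatCGggctagtgaattca
Foxp1 intron 6, higher in B cells (chr6:99023825-99023854): agggtaagataaagCGtaagaattaaaaca
Foxp1 intron 6, lower in B cells (chr6:99053120-99053149): ttccatgtcttaatCGtctcatattttctg
Foxo1 intron 1, lower in B cells (chr3:52340916-52340945): actaacttatgactCGgtcctcacctccga
Foxo1 exon 3, 3′ UTR, lower in B cells (chr3:52348172-52348201): gatgccctgtgtcaCGctgtcatagttccc
Klf2 exon 3, 3′ UTR, higher in B cells (chr8:72321280-72321309): gatggcatctctgcCGcctgcttcgttttt
Btg1 exon 2, 3′ UTR, higher in B cells (chr10:96622255-96622284): ggttgtggtgctttCGataagcttctcgga
Tob1 downstream, higher in B cells (chr11:94223158-94223187): aggggctccttaacCGaagaccaagaacaa

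The Bach2 intron 1 CpG was methylated in 21 of 21 reads of female B cells and 13 of 13 of male B cells, against 0 of 19 and 0 of 24 reads in T cells (females, males). The Foxp1 CpG that was lower in B cells gave the opposite picture, with 0 of 14 and 0 of 8 methylated reads in B cells (females, males) against 16 of 16 and 12 of 12 in T cells. The Klf2 CpG in the 3′ UTR had 13 of 14 and 12 of 12 methylated reads in B cells and 0 of 9 and 0 of 8 in T cells. At single CpGs the depth was low: among the 27 CpGs read in this way, 28 file values were 0, on 7 to 25 reads, which allows a level of up to 42.9% at the lowest and 12% at the highest of these depths.

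Mean depth was 14.6 to 17.7 reads per autosomal CpG in the 4 files, and 10.5 to 19.1 reads per CpG across the 6 loci, lowest in female B cells at Btg1. The labels were checked at marker gene starts. All 3 B cell marker genes used (Cd79a, Cd79b, Ms4a1) were lower in B cells by 31.8 to 80.6 percentage points, and all 4 T cell marker genes (Cd3d, Cd3e, Cd3g, Cd4) were higher in B cells by 54.3 to 88.3 points. Among 5 markers of other cells, Cd8a and Cd8b1 were also higher in B cells at their starts, by 20.9 and 50.3 points, and the starts of the other 3 were between 66.1% and 93.0% in every file. Bisulfite reads do not separate 5-methylcytosine from 5-hydroxymethylcytosine, and a level is a share of reads over all cells of a file, so a change in some cells and a change in the mixture of cells cannot be told apart.

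All 6 gene starts were unmethylated in B and in T cells of both sexes. Within 1 kb of the start, the pooled methylation level of each gene lay between 0.0418% and 2.14% in every file, over 114 to 213 CpGs and 1000 to 3966 reads per file. Foxo1, with the most CpGs, stood at 0.184% (females) and 0.121% (males) in B cells, with 0.101% and 0.0778% in T cells. Bach2 held the highest value, 2.14% in female B cells (95% Wilson interval 1.48% to 3.07%), where male B cells stood at 0.526% and the T cell files at 0.804% (females) and 0.924% (males). The B and T files overlapped at Bach2, Klf2, Foxp1 and Btg1. Starts at or below 20% in every file made up 26.4% of the 51815 gene starts tested, which cover every annotated gene type. This state was thus shared with many other genes.

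In a quasi-binomial logistic model of methylated and unmethylated reads with cell type and sex as terms, fitted over all gene starts with p-values adjusted by Benjamini-Hochberg, 0 of the 6 starts differed between B and T cells by 20 points or more, beside 1.59% of all gene starts. Adjusted p-values ran from 0.367 at Tob1 to 0.902 at Klf2, 0 of the 6 had an unadjusted p under 0.05, and limma on log2 read ratios also called 0. The mean differences were between -0.13 points at Klf2 and 0.47 points at Bach2.

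**Figure D1:**
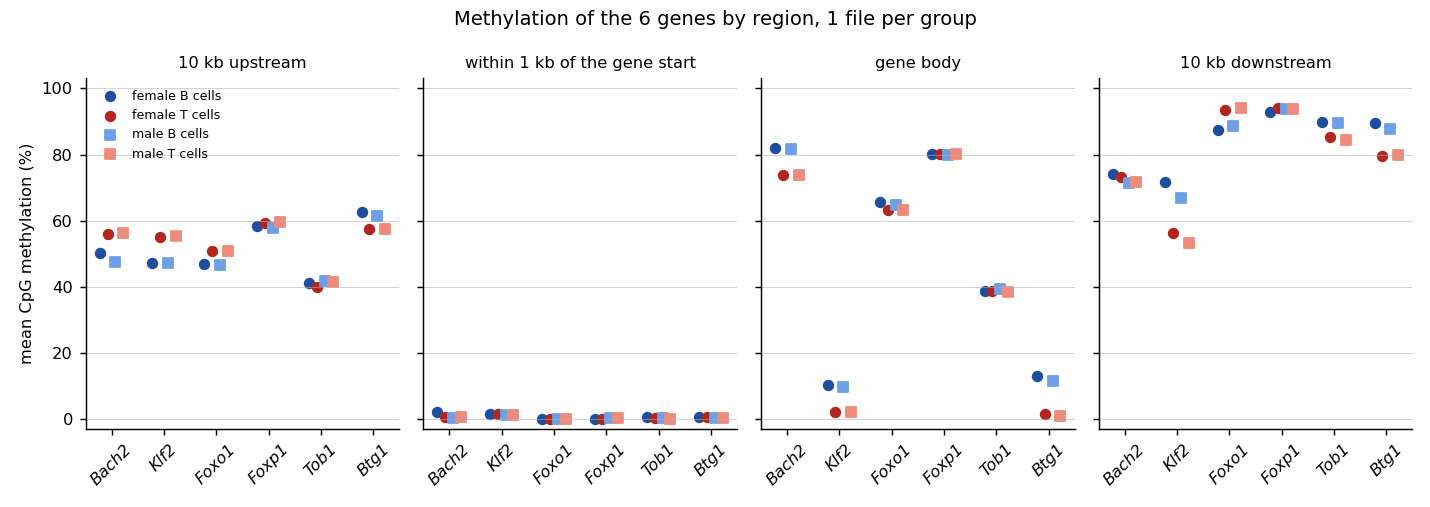
Mean CpG methylation in percent (vertical axis) of the 6 genes (horizontal axis) in the 10 kb upstream, within 1 kb of the gene start, over the gene body and in the 10 kb downstream. Each point is 1 file (blue, B cells; red, T cells; circles, female; squares, male), and the starts lie near 0 in every file while the bodies of Bach2, Klf2, Btg1 and, by a small margin, Foxo1 have both B cell points above both T cell points.

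The unmethylated stretch around each start was then measured, as the run of CpGs for which the mean over 5 neighbouring CpGs stayed at or below 20%. All 6 starts lay in such a stretch in every file, as did 12245 of 21755 protein-coding gene starts. Averaged over the 4 files the stretches were wide, with mean widths between the 90.2th (Klf2) and the 99.3th (Btg1) percentile of those protein-coding genes. At Klf2 this came from the T cell files, at 2596 bp (females) and 4564 bp (males). Its width was 1504 bp in both B cell files, beside medians of 1329 bp (females) and 1345 bp (males) over protein-coding starts.

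On the upstream side the files ended close together. The upstream edge lay 348 bp before the start of Klf2 in all 4 files, 1043 bp before the start of Foxo1 in all 4 files and 529 to 531 bp before that of Bach2. It ranged from 900 to 935 bp at Foxp1, from 687 to 764 bp at Btg1 and from 1650 to 1785 bp at Tob1. On the downstream side the edges of 4 genes came earlier in B cells.

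At Btg1 the stretch reached 2222 bp past the start in female B cells and 4210 bp in male B cells, but 5735 bp in both T cell files, close to the end of the 5804 bp gene. At Klf2 the downstream edge lay 1155 bp past the start in both B cell files, 2247 bp in female T cells and 4215 bp in male T cells, the last beyond the end of the 2624 bp gene. Both B cell files therefore fell below both T cell files at each of these genes. However, the T cell files of Klf2 differed from each other by more than the female T cells differed from the B cells. The B cell files of Btg1 likewise lay further apart than the male B cells lay from the T cells.

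At Bach2 the downstream edge was at 1845 and 1907 bp in B cells (females, males) and at 3367 and 2530 bp in T cells (females, males). At Foxo1 it was at 2023 and 2709 bp in B cells and at 3830 and 3308 bp in T cells. Here too the files of one cell type (T cells at Bach2, B cells at Foxo1) lay further apart than the closest B and T cell files. Mean widths were thus smaller in B than in T cells by 1071.5 bp at Bach2, 2076 bp at Klf2, 1203 bp at Foxo1 and 2596 bp at Btg1, and 1.17% of the protein-coding starts in a stretch were narrower in B cells by at least 1000 bp. Foxp1 went the other way, with widths of 3749 and 3699 bp in B cells and 3155 and 3131 bp in T cells, and Tob1 differed little (3004 and 2910 bp against 2775 and 2779 bp). The median difference over all protein-coding starts in a stretch was 0 bp. With a limit of 10% in place of 20%, the Klf2 difference shrank to 34.5 bp, while Bach2, Foxo1 and Btg1 stayed narrower in B cells by 1480, 1537.5 and 3140 bp. With a limit of 30% the 4 genes were narrower in B cells by 2141 bp (Bach2), 2713 bp (Klf2), 1056.5 bp (Foxo1) and 2357.5 bp (Btg1).

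**Figure D2:**
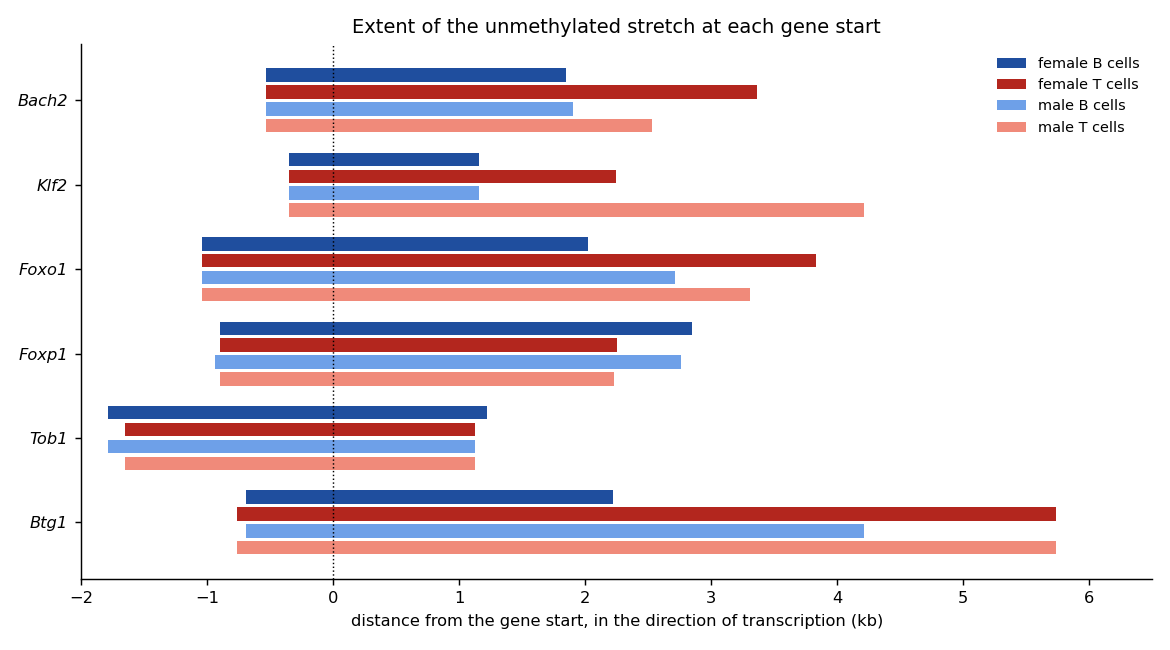
Extent of the unmethylated stretch at each gene start in kb from the start, in the direction of transcription (horizontal axis), with 1 bar per file for each of the 6 genes. The upstream ends nearly line up across files, while the downstream ends of Bach2, Klf2, Foxo1 and Btg1 lie further downstream in both T cell files.

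Away from the starts the loci differed widely between the cell types. Of 1145 windows of 1 kb with at least 3 CpGs, 176 (15.4%) differed between B and T cells at an adjusted p under 0.05 and by at least 20 points, where 2.08% of all 2018320 windows did. In 124 of them methylation was higher in B cells (10.8% of the 1145, beside 1.16% of all windows). In 52 it was lower (4.54% of the 1145, beside 0.913% of all windows). The sign was the same in females and in males in all 176, as it was in 41927 of the 41929 windows called over the genome. A call needs a large mean difference, so this agreement is nearly fixed by the call itself.

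These were mostly windows that stayed highly methylated in one cell type and were partly methylated in the other. Windows higher in B cells had median levels of 88.7% and 86.6% in B cells (females, males) and of 48.7% and 48.6% in T cells (females, males). Windows lower in B cells had medians of 46.8% and 47.2% in B cells and of 83.1% and 87.5% in T cells. The median over all 1145 windows was a difference of 0.34 points, beside 0.05 points over all windows tested.

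The windows shared a single dispersion of 1.31, since among the windows used to estimate it, those with at least 5 expected methylated and unmethylated reads in every file, no spread between windows was found beyond counting error. The smallest adjusted p-values rest on this and overstate how well a single window is known. With the dispersion estimated from all windows a spread was found (4.77 prior degrees of freedom), 148 windows were called, and the adjusted p-values of the 27 named windows ran from 0.00143 to 0.0462 (0.00168 at the Bach2 window and 0.00276 at the Foxp1 window with the largest differences). How many of all windows would be called with that prior was not counted. Neighbouring windows are not independent. In the main model the p-value of a window rests on its read counts and the shared 1.31, estimated over these 4 files, and not on its own spread between files.

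Bach2 (chr4:32238804-32586108, plus strand, 7 exons), the repressor that restrains plasma cell and effector T cell differentiation, had 70 called windows of 360, and 61 of them were higher in B cells. Most lay in its first 2 introns, which are also long. In intron 1, 29 of 77 windows were called and all 29 were higher in B cells. In intron 2, 26 of 99 were called, 22 higher and 4 lower in B cells, while 5 of 78 were called in intron 3 and 4 of 58 in intron 4. The short intron 5 had 3 of 11 called and the upstream flank 3 of 9, shares (27.3% and 33.3%) close to those of introns 1 and 2 (37.7% and 26.3%).

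The longest stretch of Bach2 lay 13.7 to 27.7 kb past the start, at chr4:32252001-32267000, where 11 called windows lay within 15 kb. Over its 175 CpGs the level was 73.9% (females) and 72.6% (males) in B cells, with 39.4% and 41.5% in T cells. Between it and the gene start lay a run of 4 windows, chr4:32248001-32252000, that was unmethylated in both cell types, at 5.21% and 5.17% in B cells and 1.65% and 3.07% in T cells. A second unmethylated region shared by B and T cells was thus followed directly by one that was lower in T than in B cells.

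The largest difference in Bach2 was at chr4:32291001-32292000 in intron 1, 52.7 kb past the start. Its level was 90.3% (Wilson interval 86.0% to 93.4%) and 85.5% (80.6% to 89.4%) in B cells from females and males, and 11.6% (8.45% to 15.7%) and 15.5% (12.0% to 19.9%) in their T cells. Methylation was high in both B cell files and low in both T cell files, by 74.4 points on average (adjusted p = 7.01e-112), and all 15 of its CpGs differed in that direction. These intervals cover counting error only.

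Bach2 also had 9 windows that were lower in B cells, among them all 3 called windows upstream of the start. The window at chr4:32232001-32233000, 6.3 kb upstream, was at 53.8% and 42.7% in B cells (females, males) and at 88.2% and 94.6% in T cells. In intron 2, chr4:32401001-32402000 was at 42.6% and 32.9% in B cells and at 82.4% and 82.2% in T cells. Both B cell files were below both T cell files in each window, by 43.1 points (adjusted p = 3.47e-14) and 44.5 points (adjusted p = 9.78e-13). With at least 10 reads per CpG the upstream difference was 22.6 points (adjusted p = 0.00451), again lower in B cells.

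Foxp1 (chr6:98925338-99522721, minus strand, 20 exons in the reference transcript), a forkhead repressor needed to keep T cells naive and for early B cell development, had 77 called windows of 610. The directions were almost balanced, with 40 higher and 37 lower in B cells. Intron 2 held 38 of the 77, out of 124 windows, with 24 higher and 14 lower. A second annotated gene, Gm20696, overlaps much of this locus, so windows of intron 2 lie in both.

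Called windows of the same direction often lay side by side. The longest block that was lower in B cells covered chr6:99330001-99343000 in intron 2, with 11 called windows in 13 kb. Its 125 CpGs were at 32.6% (females) and 34.3% (males) in B cells, with 76.7% and 75.2% in T cells. Within it, chr6:99340001-99341000 was at 11.1% and 10.3% in B cells (females, males) and at 93.2% and 92.6% in T cells, which at 82.2 points was the largest difference of any window in the 6 loci (adjusted p = 2.25e-30, 45 to 87 reads per file). With at least 10 reads per CpG this window kept too few CpGs to be tested.

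Nearer to the gene start most called windows were higher in B cells, with 4 exceptions, 172.2, 157.2, 145.2 and 3.2 kb past the start. The last of these, chr6:99519001-99520000, was the called window closest to the start and was chosen for mention after its values were seen. It was at 14.8% and 31.1% in B cells (females, males) and at 85.5% and 87.8% in T cells, on at least 61 reads per file, at the edge of the unmethylated stretch, which was wider in B cells at this gene. The 3 longest blocks that were higher in B cells lay in intron 2 and the exon beside it, between 87.2 and 144.2 kb past the start. The block chr6:99394001-99399000 had 5 called windows and was at 90.1% and 86.3% in B cells (females, males) and at 46.8% and 42.9% in T cells. The block chr6:99432001-99436000 had 4 and was at 84.6% and 81.0% in B cells and at 38.0% and 41.6% in T cells.

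Intron 6 of Foxp1 held opposite differences 30 kb apart. The window chr6:99023001-99024000 was at 86.6% and 89.4% in B cells (females, males) and at 9.68% and 12.9% in T cells, with all 8 CpGs in that direction (76.7 points, adjusted p = 1.30e-57). The window chr6:99053001-99054000 was at 23.0% and 32.8% in B cells and at 95.5% and 97.3% in T cells, with all 12 CpGs in that direction (68.5 points lower, adjusted p = 1.12e-59). Between them lay chr6:99026001-99029000, a CpG-dense run of 113 CpGs that was at 1.62% to 2.33% in every file. A window methylated mainly in B cells, a run unmethylated in both and a window methylated mainly in T cells thus lay within the same intron.

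**Figure D3:**
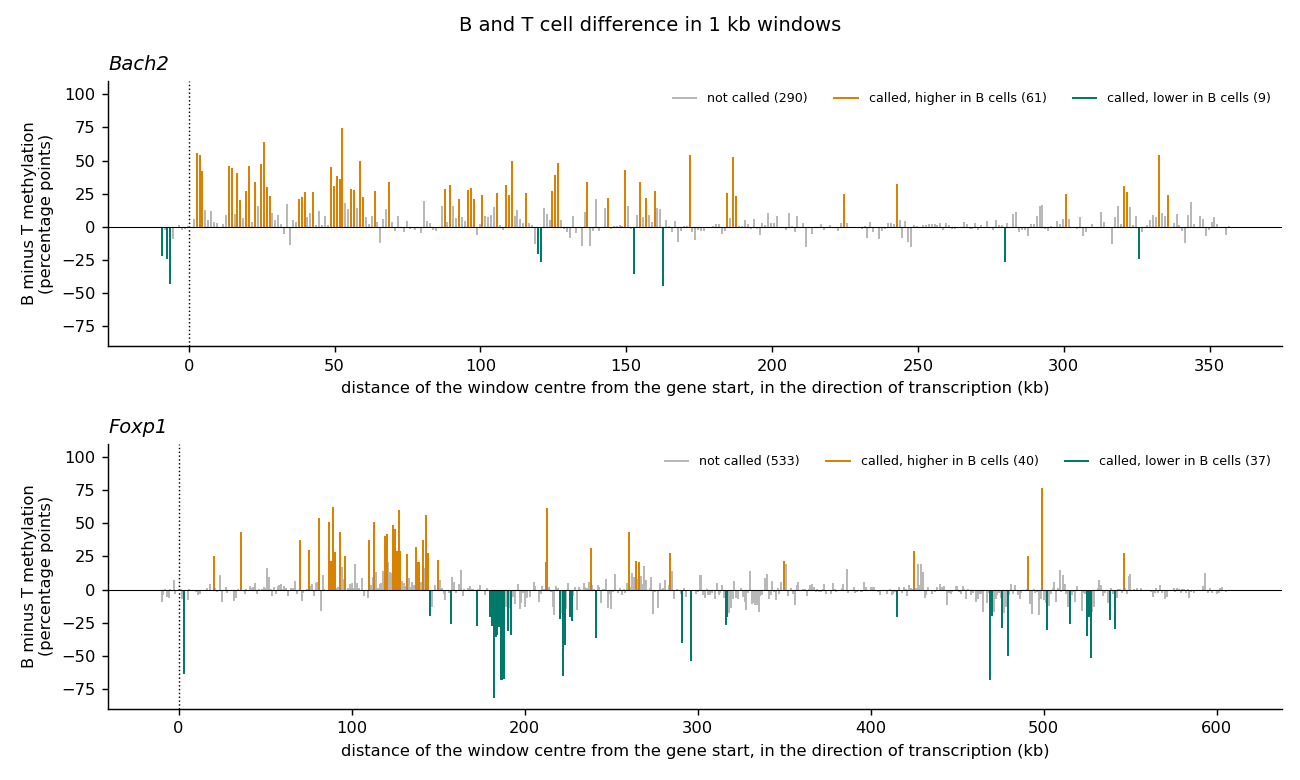
Mean B minus T methylation in percentage points (vertical axis) of each 1 kb window along Bach2 and Foxp1, against the distance of the window centre from the gene start in kb (horizontal axis). Orange lines are called windows higher in B cells, green lines called windows lower in B cells and grey lines windows not called, and the first part of Bach2 is almost all orange while Foxp1 alternates between blocks of both colours.

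Foxo1 (chr3:52268336-52353221, plus strand, 3 exons) had 14 called windows of 102, with 9 higher and 5 lower in B cells. All 9 that were higher lay in intron 1, within 20.2 kb of the start. The stretch chr3:52271001-52276000, which lies at the downstream edge of the unmethylated start, was at 75.9% (females) and 73.1% (males) in B cells, with 36.3% and 38.5% in T cells. In chr3:52280001-52281000 the level was 86.5% and 88.7% in B cells and 30.5% and 28.6% in T cells (58.1 points, adjusted p = 2.69e-16).

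The windows of Foxo1 that were lower in B cells were spread from the upstream to the downstream flank. In intron 1, chr3:52340001-52341000 was at 39.3% and 29.6% in B cells (females, males) and at 76.5% and 77.9% in T cells (42.8 points lower, adjusted p = 2.96e-45, 15 of its 18 CpGs in that direction). In the last exon, chr3:52348001-52349000 was at 60.9% and 64.3% in B cells and at 88.1% and 91.4% in T cells, and the CpG shown above, in the 3′ UTR, had 0 of 18 and 0 of 19 methylated reads in B cells against 14 of 15 and 18 of 19 in T cells. At chr3:52266001-52267000, 1.8 kb before the start, the values were 47.3% in both B cell files and 73.4% and 72.2% in T cells. The last 2 windows lost the call with limma on log2 read ratios (adjusted p = 0.0565 and 0.195), with the direction kept.

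Klf2 (chr8:72319033-72321656, plus strand, 3 exons), a gene of only 2624 bp, had 4 called windows of 23. The 3 that were higher in B cells began in the last exon and went on downstream, between chr8:72321001 and chr8:72325000. The first, chr8:72321001-72322000, was at 56.7% (females) and 46.0% (males) in B cells, with 12.9% and 6.77% in T cells (41.5 points, adjusted p = 9.67e-20). With at least 10 reads per CpG this difference was 24.8 points (adjusted p = 8.17e-04). Within this stretch chr8:72322001-72323000, just past the gene end, was low in every file, at 9.41% and 11.6% in B cells and 3.59% and 2.70% in T cells. The 2 called downstream windows were higher in B cells by 33.6 and 28.8 points, and lost the call with limma on log2 read ratios (adjusted p = 0.0954 and 0.146).

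The fourth Klf2 window lay 7.5 kb upstream, at chr8:72311001-72312000, and was lower in B cells. It was at 41.7% and 27.8% in B cells (females, males) and at 83.2% and 89.0% in T cells (51.4 points lower, adjusted p = 1.18e-31). Windows lower in B cells and upstream of the start were also called at Bach2 and Foxo1, and at none of the other 3 genes. How many of all genes have such a window was not counted. The one at Foxo1 lost its call with limma on log2 read ratios.

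Btg1 (chr10:96617006-96622809, plus strand, 2 exons) had 9 called windows of 26, all higher in B cells. Of these, 6 formed 1 stretch without a gap, chr10:96620001-96626000, from the last part of the gene into the downstream flank. Over its 52 CpGs the level was 57.4% (females) and 56.4% (males) in B cells, with 22.8% and 22.5% in T cells. In chr10:96622001-96623000, at the 3′ end of the gene, it was 50% and 49.1% in B cells and 12.4% and 7.84% in T cells (39.4 points, adjusted p = 8.38e-34). A further pair of windows lay upstream, at chr10:96609001-96611000, with 92.3% and 90.9% in B cells and 61.5% and 61.2% in T cells.

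Tob1 (chr11:94211454-94215495, plus strand, 2 exons) had the fewest, 2 of 24, and both lay near the ends of the locus. The window chr11:94223001-94224000, downstream of the gene, was at 80.9% and 77.8% in B cells (females, males) and at 40.7% and 46.4% in T cells. The window chr11:94201001-94202000, upstream, was at 90.2% and 89.0% in B cells and at 63.0% and 60.6% in T cells. Both were called in the main model (adjusted p = 4.90e-26 and 8.28e-05) but not with limma on log2 read ratios (adjusted p = 0.067 and 0.0651). No window within the Tob1 gene itself was called.

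**Figure D4:**
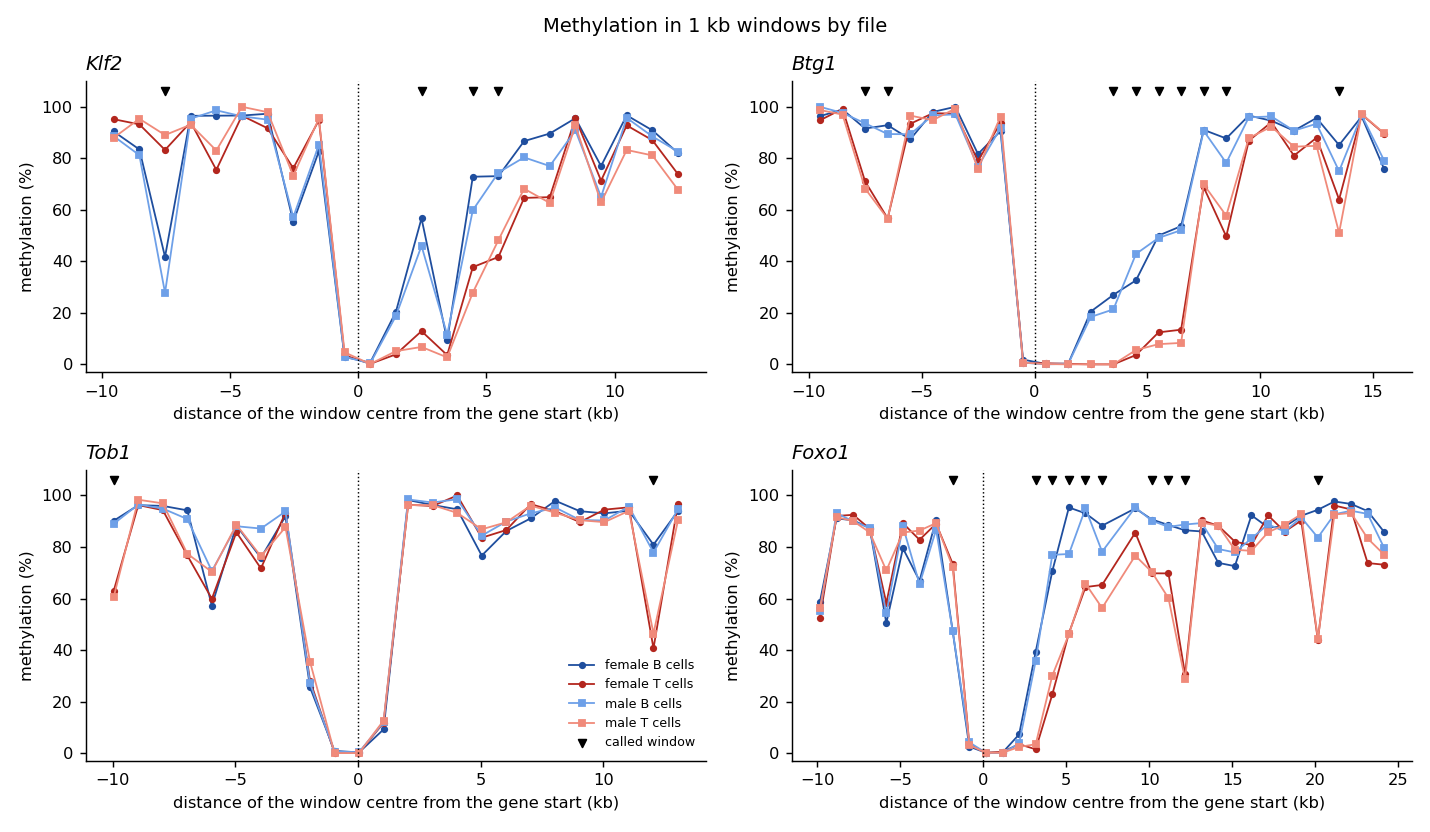
Methylation in percent (vertical axis) of 1 kb windows of Klf2, Btg1 and Tob1, and of the first 25 kb of Foxo1, against the distance of the window centre from the gene start in kb (horizontal axis), with 1 line per file and triangles over called windows. All 4 files fall to near 0 at each start, and past the start the B cell lines rise before the T cell lines at Btg1, Foxo1 and Klf2 but not at Tob1.

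Averaged over the gene bodies, B cells were more methylated by at least 5 points at 3 of the 6 genes. The Bach2 body was at 82.0% (females) and 81.5% (males) in B cells, with 73.9% and 73.9% in T cells. The Klf2 body was at 10.2% and 9.62% in B cells (females, males) and at 2.21% and 2.18% in T cells. The Btg1 body was at 12.9% and 11.4% in B cells and at 1.52% and 0.908% in T cells.

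At these 3 genes the files of one cell type differed between the sexes by at most 1.48 points. Both B cell files lay above both T cell files at these genes and at Foxo1, beside 27.1% of all gene bodies, so that order alone was common. In limma on the mean CpG level, fitted over all gene bodies, B minus T was 7.86 points at Bach2 (adjusted p = 1.07e-04), 7.73 points at Klf2 (adjusted p = 9.62e-04) and 10.96 points at Btg1 (adjusted p = 5.60e-04). All 3 passed the threshold of 5 points, beside 3.05% of all gene bodies that were called higher in B cells and 5.65% called in either direction. The Foxo1 body was higher in B cells by 2.04 points (adjusted p = 0.00766), under the size threshold. At Foxp1 and Tob1 the differences were -0.17 points (adjusted p = 0.331) and 0.47 points (adjusted p = 0.701). At Foxp1 the body means of B and T cells thus lay close together although 77 of its windows were called.

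The 3 body calls depended on the model. With all reads of a body pooled in place of the mean over CpGs, only Bach2 passed, and without the dependence of the variance on the number of CpGs, 0 of the 6 did. With at least 10 reads per CpG the Klf2 difference was 2.66 points, under the size threshold, so its call was lost.

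Within the called windows the difference was not even from CpG to CpG. In the Bach2 window of intron 1, the CpGs from 150 bp before the window centre to 428 bp past it were at 0% to 4.17% in T cells and above 50% in B cells, while the 3 CpGs before them were at 31.8% to 76% in T cells and the last CpG of the window was at 26.3% and 40% (females, males). In the called Foxp1 window of intron 2 that lies at chr6:99335001-99336000, all 19 CpGs were lower in B cells, and the window was at 16.7% and 23.5% in B cells (females, males) against 87.1% and 89.9% in T cells.

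**Figure D5:**
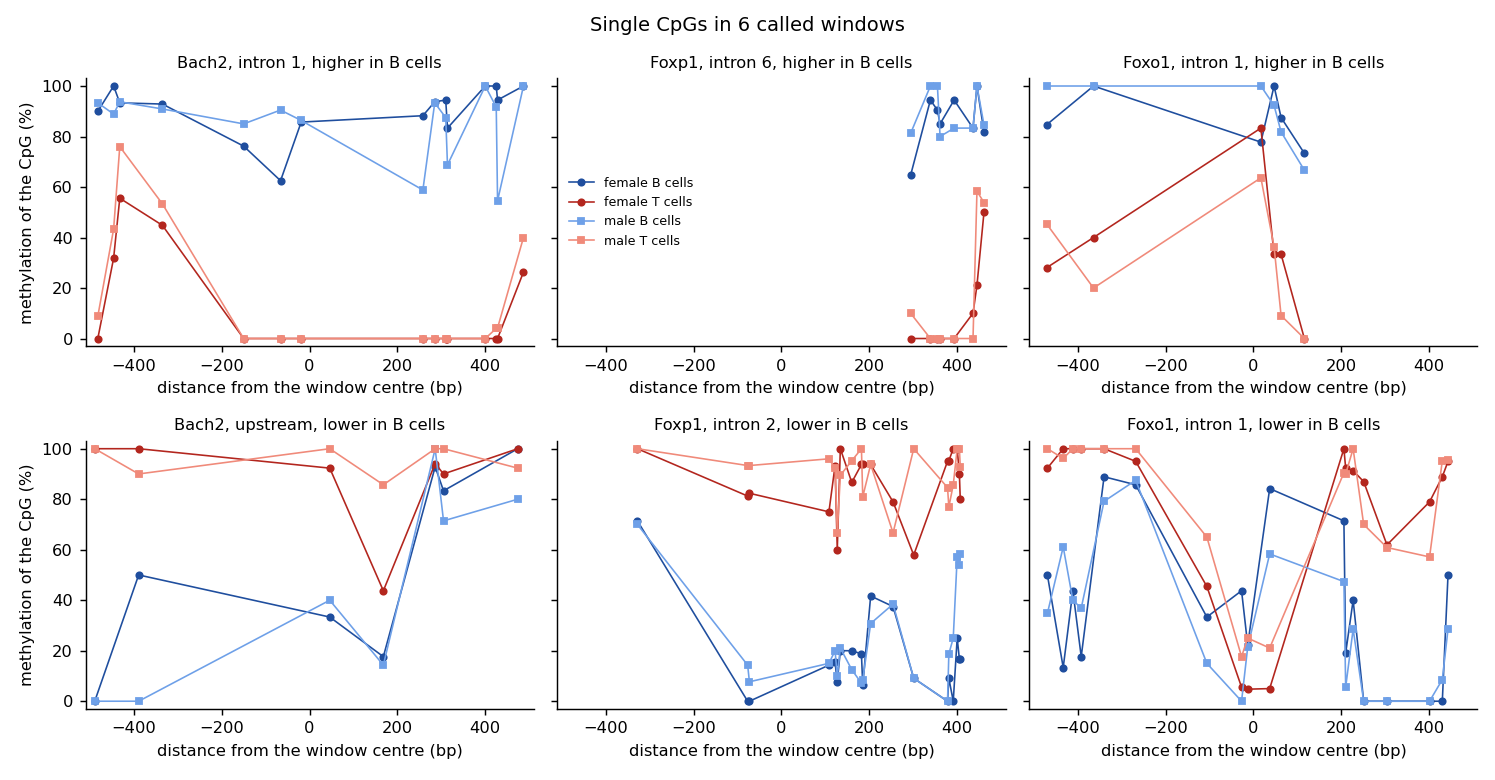
Methylation in percent (vertical axis) of each CpG in 6 called windows of Bach2, Foxp1 and Foxo1, against the distance from the window centre in bp (horizontal axis), with 1 line per file. Blue B cell lines and red T cell lines are separated at most CpGs, in opposite directions in the upper and lower rows, and the 2 files of a cell type mostly run together.

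Few windows went from unmethylated in one cell type to mostly methylated in the other. Windows at or below 20% in both T cell files and at or above 50% in both B cell files numbered 6 of 1145 (0.524%). Over all windows the share was 0.0695%. They were 3 in Bach2, 2 in Foxp1 and 1 downstream of Btg1. The reverse pattern, low in B cells, was met by 2 windows (0.175%, beside 0.0376% of all windows), both in intron 2 of Foxp1. In one of these, chr6:99336001-99337000, 0 of 75 reads were methylated in female B cells, which allows a level of up to 4.00%, and 1.41% in male B cells, against 72.8% and 65.8% in T cells. With the limit for a low level at 10% or 30%, the total of 8 became 2 or 19. The shares of all windows at these limits were not counted.

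Windows that were unmethylated in every file numbered 37 of 1145 (3.23%), beside 1.53% of all windows. At Klf2, Foxo1, Tob1 and Btg1 they all lay within 5 kb of the gene start. Bach2 had 4 of 7 further away, and Foxp1 13 of 17. The internal runs of Foxp1 were in introns 2, 3, 5 and 6, and the run chr6:99263001-99267000 in intron 3 was at 3.28% and 4.94% in B cells (females, males) and 2.71% and 7.65% in T cells.

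Some of these runs coincide with annotated alternative starts. The 6 genes had 24 distinct transcript starts, after those within 500 bp of each other were merged, and 14 of them belonged to Foxp1. Methylation was at or below 20% in every file at 11 of the 24, beside 21.3% of all transcript starts. These 11 include the 6 gene starts already described, and 5 of the 11 belong to Foxp1. Levels were read within 1 kb of each start, so close starts share reads and are not separate places. The 2 starts of Btg1, 548 bp apart, are such a pair, as are chr6:99028313 and chr6:99028942 in Foxp1. The inner Foxp1 starts at chr6:99028313 and chr6:99028942, in the run of intron 6, were at 0.611% to 4.52% in every file, and the one at chr6:99266532 was at 7.56% to 16.3%.

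In the same model fitted over all transcript starts, 2 of the 24 were called, both in Foxp1, beside 1.98% of all transcript starts. The start at chr6:99435345, used by a basic protein-coding transcript, was at 85.5% (females) and 78.3% (males) in B cells, with 41.0% and 46.3% in T cells. It was higher in both B cell files, by 38.3 points (adjusted p = 4.76e-06). The start at chr6:99044459 was at 65.0% and 74.4% in B cells (females, males) and at 97.1% and 96.1% in T cells, 26.9 points lower in B cells (adjusted p = 6.78e-06). When only 500 bp to either side were read it was 13.0 points lower, under the size threshold, so the call was lost. The start at chr6:99248336 was 17.5 points lower in B cells (adjusted p = 0.0103), under the size threshold, and passed it at 500 bp and at a minimum of 10 reads, by 35.6 and 49.1 points. Transcription from these starts was not analysed here.

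No difference between the sexes was detected at the 6 loci, all of which are autosomal. The sex term of the quasi-binomial model called 0 of 1145 windows, beside 0.00103% of autosomal windows. Before adjustment 72 of the 1145 had a p under 0.05, beside 92265 of 1950708 autosomal windows, and the smallest adjusted p at the 6 loci was 0.498. The B and T cell difference itself was not found to vary between the sexes, with 0 windows called, beside 0.00634% of all windows. In 71 of the 1145 (smallest adjusted p = 0.152) the unadjusted p was under 0.05, beside 87247 of all 2018320 windows. A call for sex, or for a B and T difference that varies between the sexes, needed at least 20 points. Smaller differences would not pass, and each sex gave 1 file per cell type. The median absolute difference between female and male files over the 1145 windows came to 2.35 points for B cells and 2.05 points for T cells.

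Other genes with a part in lymphocyte quiescence were read in the same way. Of 15 further regulators, 13 had starts at or below 20% in every file, beside 26.4% of all gene starts, and 0 of the 15 starts were called, beside 1.59%. The 2 others were Foxo4, which is on the X chromosome and was at 33.8% and 35.5% in the female files but at 2.06% and 1.42% in the male files, and Slfn2, which was at 25% and 27.4% in B cells and 11.4% and 12.6% in T cells. The 26.4% covers genes of every annotated type. By the measure of stretches, 12245 of 21755 protein-coding starts were unmethylated in every file, so low starts are common among such genes. Among the 15 bodies, 3 were called, all higher in B cells, beside 3.05% of all bodies called in that direction. They were Klf13 by 5.57 points, Tob2 by 5.34 points and Btg2 by 16.6 points. The latter 2 are close relatives of Tob1 and Btg1, of which only the Btg1 body was called. The alternative body models, on which the calls of the 6 genes depended, were not run for these 15 bodies. The median difference of the 15 bodies was 0.61 points, beside 0.03 points over all bodies tested.

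The 4 targets of Klf2 and Foxo1 that were read, which encode receptors for lymphocyte homing and survival, had 0 starts called, beside 1.59% of all gene starts, and 3 bodies called, all higher in B cells, beside 3.05% of all bodies. The starts of Ccr7 and Itgb7 were higher in B cells by 13.9 points (adjusted p = 0.00255) and 16.9 points (adjusted p = 0.00354), under the size threshold, and the median over the 4 starts was 13.4 points. The S1pr1 body, for the sphingosine phosphate receptor that lets lymphocytes leave lymphoid organs, was higher by 22.9 points, that of Ccr7 by 41.1 and that of Il7r by 12.4 points. The Itgb7 body was higher by 1.43 points (adjusted p = 0.126). The median of the 4 bodies was 17.7 points, and the alternative body models were not run for them either.

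For each of the 6 genes, the protein-coding genes with the most similar values were sought among 20943, by the mean absolute difference over 8 values, the start level and body level in the 4 files. For Klf2 and Btg1 they were the same pair, Limd2 (0.86 and 1.24 points) and Socs1 (1.33 and 1.59 points), which also have unmethylated starts and a body that is a little more methylated in B than in T cells. For Bach2 they were Clint1 (0.65 points) and Ncbp1 (0.90 points). For Foxo1 they were Usp3 (0.28 points) and Tle3 (0.33 points), for Foxp1 Atp2b1 and Zdhhc17 (both 0.19 points), and for Tob1 Exoc8 (0.31 points) and Cnppd1 (0.32 points).

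The 1 kb windows were also searched, on both strands, for short motifs of lymphocyte transcription factors, chosen after the data had been seen. The palindromic EBF motif, of the early B cell factor family, was present in 5 of the 52 windows that were lower in B cells (9.62%) and in 0 of the 124 that were higher, beside 1.86% of all windows tested. Among all called windows of the genome it was in 8.14% of those lower and in 1.43% of those higher in B cells. The RUNX motif TGTGGTTT was in 13 of the 124 higher windows (10.5%) and in 1 of the 52 lower ones, beside 8.13% of all windows. Among all called windows of the genome it was in 16.1% of those higher and 9.37% of those lower in B cells. The FOXO motif TGTTTACA was in 12 of the 124 (9.68%) and 1 of the 52, beside 5.76% of all windows, but over the genome it was in 6.01% of the higher and 5.53% of the lower called windows, close to that share. The motifs CTTTGATC of TCF/LEF and GAGGAAGT of PU.1 were in 3 and 7 of the 124 and in 2 and 4 of the 52, beside 3.94% and 6.01% of all windows, and over the genome in 6.59% and 7.47% of the higher and 3.58% and 11.1% of the lower called windows. These are counts of letters, without a test, and binding was not measured.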

How the data were processed

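Whole-genome bisulfite libraries of splenic B and naive CD4+ T cells from female and male mice were processed by the authors with Trim Galore, FastQC and Bismark 0.13.1 on mm10, per the labels (submitters' processing notes). For each group they deposited 1 table giving, per CpG, the methylated fraction and the count of reads (minimum 5). Whether a table merges the 2 samples of its group is not given in the sources used here. Part of each sample was also oxidized in the study, and oxidative libraries were not used here.

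Methylated reads were recovered as fraction times count, which came out whole for 100% of entries (tolerance 0.00101). Positions, which count from 0 in the tables, were raised by 1. All CpGs with at least 5 reads in every file were used. Reads were summed in 1 kb windows with at least 3 CpGs, and within 1 kb of gene and transcript starts, over the whole genome. Reads were modelled by quasi-binomial regression on cell type and sex, which leaves 1 residual degree of freedom, with the dispersion moderated by limma 3.58.1 (squeezeVar, R 4.3.3). Its prior came from features with at least 5 expected methylated and unmethylated reads in every file. P-values came from F tests, which for the windows, with their single dispersion, reduce to chi-squared tests. They were adjusted by Benjamini-Hochberg over all features. Features with an adjusted p under 0.05 whose mean levels differed by at least 20 percentage points were called. Gene bodies were tested with limma on the mean CpG level, with a variance trend on the log2 number of CpGs, and called from 5 points. The models were tested on simulated data. The window model recovered 31.5%, 79.5% and 98.5% of changes of 20, 30 and 40 points (200 each among 200000 windows). Many window differences near the threshold are thus missed. The gene body model recovered 94.5% of changes of 8 points (200 among 45050 bodies). All simulated windows had the same dispersion, as the window model assumes, and simulated bodies carried little more than counting noise. The changes were placed at intermediate levels, a range that leaves out the bodies of Bach2, Klf2 and Btg1. Intervals are 95% Wilson intervals, and they and the limits for a count of 0 (3 counts) cover counting error only. Depth was 14.6 to 17.7 reads per autosomal CpG, on 18216084 shared autosomal CpGs.

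Windows named in the text were up to 3 per gene and direction ranked by whichever of the female and male differences was smaller, besides blocks of called windows. A B cell marker and a target gene of the lists are not reported here. The 6 genes, the further gene lists and the tests were chosen with earlier results of these data known. Alternatives covered the coverage minimum, window size, number of CpGs, thresholds, dispersion prior, model terms, another test and leaving out each file. Sequences were read from the RefSeq copy of GRCm38.p6, on which all used CpGs of the 6 loci fell on a CG.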

Additional observations from a re-analysis of the deposited data

How the results depend on the processing

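The count of 176 windows differing between B and T cells in the 6 loci was 283 and 87 with a threshold of 10 and 30 points, 295 of 1871 with windows of 500 bp, and 95 with limma on log2 read ratios (pseudocount 1). It was 148 to 176 with the other settings, and 165 to 175 when each file was left out in turn. The share of all windows called was not counted under these settings. The comparison with 2.08% of all windows therefore holds for the main model only. Of 27 named windows, 6 lost the call with limma on log2 ratios and 4 with a threshold of 30 points. None of the 27 reversed or lost it under the other settings computed for them, and the 500 bp windows were not matched to them. With at least 10 reads per CpG, 22 of the 27 could be computed (not the Foxp1 window chr6:99340001 with the largest difference, nor 2 of Foxo1 and 1 each of Bach2 and Btg1), and a Bach2 window (chr4:32232001) and a Klf2 window (chr8:72321001) moved by over 1.5 times, to -22.6 and 24.8 points. The 8 windows low in 1 cell type were 2 and 19 with limits of 10% and 30%, again without a count over all windows. The 3 called gene bodies became 1 with all reads pooled and 0 without the variance trend (adjusted p = 0.0994 at Btg1 and 0.107 at Bach2 and Klf2), and stayed 3 with any file left out. With at least 10 reads per CpG the Klf2 body fell under the size threshold and lost its call. Differences under the size thresholds changed sign for the Foxp1 body (0.66 points with reads pooled, 0.96 with at least 10 reads), the Tob1 body (-2.89 with reads pooled), and, within 500 bp, the transcript starts of Foxp1 at chr6:99436396 (-1.07) and Bach2 at chr4:32574931 (-0.39). The B and T differences in stretch width kept their direction, and 10 of them moved by more than the spread between the files. The cause of these changes was not tested, other than that thresholds and window sizes change what is counted. Calls at gene starts (0), transcript starts (2 to 3), and for sex (0) and the interaction with sex (0) stayed within 1.5 times.

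No paired analysis was possible because the groups share no replicate numbers and each group has 1 file; sex entered the model as a term, so B and T cells were compared within each sex. With 1 file per group, the spread within a group was not measured, and sex served as the only repeat of the B and T comparison.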
